A study of Homo sapiens with 8 samples.

Results

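Caveolins and cavins make up the coat of caveolae, the flask-shaped pits of the plasma membrane, and 7 genes of this machinery were followed through the MCF10A breast cancer progression series. The genes were CAV1 and CAV2 (the caveolins), CAVIN1, CAVIN2 and CAVIN3 (the cavins, called PTRF, SDPR and PRKCDBP in older annotation), and EHD2 and PACSIN2, which act at the caveolar neck. They were selected on their place in this machinery, as a list of gene symbols, and matched to the Ensembl identifiers of the count table. All 7 were found among the 56632 genes in the table, and all 7 were among the 18431 genes with enough counts to be tested. They were chosen by name with the expression values of these same 8 libraries known, so each adjusted p below sets the size of a difference beside the spread between replicates and is not independent evidence about the gene.

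Caveolins are cholesterol-binding membrane proteins that assemble into oligomers, and cavins form a peripheral coat on them. CAVIN1 is needed for caveolae to form in most tissues, while CAVIN2 and CAVIN3 join it in subcomplexes that affect the shape and trafficking of the pits. EHD2 is an ATPase that holds caveolae at the cell surface, and PACSIN2 is an F-BAR protein that bends the membrane at the neck. Caveolae flatten when the membrane is stretched, and CAV1 has been studied in mammary epithelium and in basal-like breast cancer both as a growth-restraining and as a growth-promoting protein.

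Poly A+ RNA was sequenced from 4 related human mammary epithelial lines grown as 3D acini in Matrigel for 8 days, with 2 biological replicates each. M1 is the non-tumorigenic line MCF10A. M2 (MCF10AT1k.cl2) carries a transfected, activated T24-HRAS and was recovered from a xenograft, and M3 (MCF10Ca1h) and M4 (MCF10CA1a.cl1) came from carcinomas that grew out of M2 xenografts and so share its HRAS history. All lines received 2% horse serum and 2.5% Matrigel, whereas EGF at 10 ng/ml was given to M1 and M2 and left out for M3 and M4. A difference of M3 or M4 from M1 or M2 therefore also compares medium without and with EGF, and the line and the medium cannot be told apart. Each stage is represented by a single line, so the replicates show the spread of cultures of that line only.

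Library totals ran from 69669970 to 107350344 estimated counts. HRAS, the gene behind the M2 line, read 154 and 139 CPM (counts scaled to a common library size) in M1 and 160 and 154 in M2, so its summed level did not separate these lines and gave no check of their labels; in M3 and M4 it read 269 to 352. The epithelial markers KRT5, KRT14, TP63, EPCAM, CDH1, KRT8 and KRT18 summed to 5981 to 11159 CPM, and KRT5 was the largest of them in every library. KRT5, KRT14 and TP63 were lower in both M4 libraries than in all others, and KRT8 and KRT18 were higher. KRT14 read 2.30 and 2.74 CPM in M4 against 8.26 to 99.7 elsewhere, and KRT18 2089 and 1340 against 414 to 1023. For EPCAM and CDH1, M4 overlapped with other lines. Of markers of cells that are rich in caveolae, CDH5, VWF, TEK and CLDN5 (endothelium), ADIPOQ, PLIN1, LEP and LPL (adipocytes), and all 6 muscle markers stayed under 1 CPM in every library. So did COL1A2, COL3A1, PDGFRA, PDGFRB and LUM of the fibroblast list and PTPRC, CD3E and LYZ of the leukocyte list. Exceptions included DCN (fibroblast), at up to 60.2 CPM in M2, and CD68 (leukocyte), at up to 51.4 CPM in M4. Over the 8 libraries, EGFL7 (endothelium) read 5.93 to 17.3 CPM, PLIN4 (adipocytes) 4.01 to 38.6 CPM and COL1A1 (fibroblast) 6.07 to 25.5 CPM. CIDEC (adipocytes) reached 1.14 CPM in M1 replicate 1. The endothelial list summed to 6.26 to 17.3 CPM and the adipocyte list to 6.37 to 38.9 CPM over the 8 libraries.

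The assignment of 2 libraries was in doubt. When the libraries were compared over 268 genes with the expression table that accompanies the article, 6 of 8 columns were closest to the library with the same label. The column for M1 replicate 2 was closest to the library labelled M2 replicate 1, and the column for M2 replicate 1 to the library labelled M1 replicate 2. The sample labels are used here, and the main results that rest on M1 or M2 are also given with these 2 libraries exchanged. The replicate coefficient of variation estimated by edgeR was 0.368 (M1), 0.0558 (M2), 0.292 (M3) and 0.259 (M4), so the libraries labelled M2 were the closest pair. For each gene, the main edgeR fit used an estimate of the spread shared by all lines. The M2 pair therefore also entered the adjusted p of comparisons without M2.

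Per kilobase of the canonical transcript, CAV1 was the most abundant of the 7 genes, with a median over the 8 libraries of 258 CPM per kb. CAVIN1 followed at 105, EHD2 at 64.6, CAVIN3 at 55.6, CAV2 at 38.4, PACSIN2 at 23.5 and CAVIN2 at 11.4 CPM per kb. The ranges of CAVIN3 (11.2 to 86.0) and EHD2 (38.6 to 80.8) overlapped, and so did those of CAVIN3 and CAV2 (32.9 to 82.1). The genes differed in how much they varied between libraries. The highest library exceeded the lowest by 1.39 times for PACSIN2 and 1.55 times for CAVIN1, by 2.09 times for EHD2 and 2.49 times for CAV2, by 3.62 times for CAV1 and 7.71 times for CAVIN3, and by 186 times for CAVIN2. These are levels of RNA per library, and fewer expressing cells and less RNA per cell cannot be told apart in bulk samples.

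**Figure D1:**
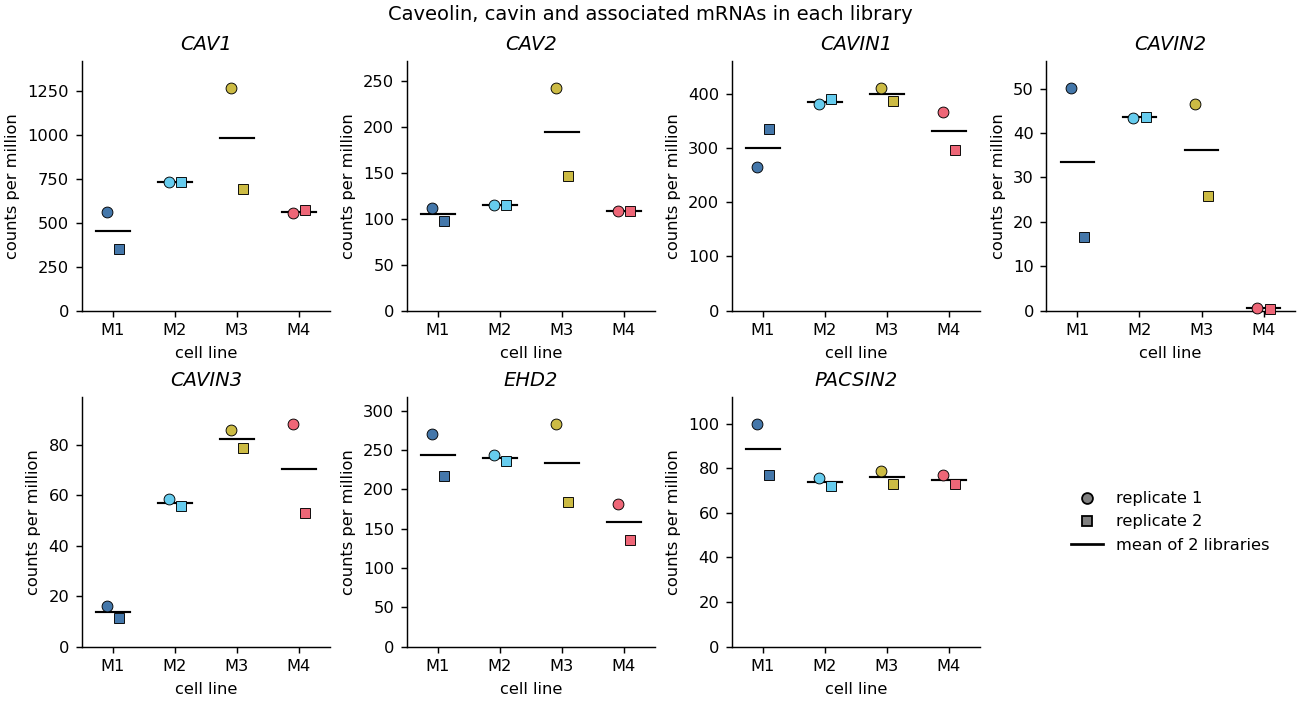
Normalised expression of the 7 genes (CPM, y axis from 0) in each library of M1, M2, M3 and M4 (x axis); circles are replicate 1, squares are replicate 2 and the line is the mean of the 2 libraries. CAVIN2 sits at 0.696 and 0.269 CPM in M4 against 16.6 to 50.2 elsewhere, and CAVIN3 at 16.1 and 11.5 CPM in M1 against 53.0 to 88.4 elsewhere.

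The cavin CAVIN2, known as a serum deprivation response protein and a binder of phosphatidylserine, was nearly lost from M4. CAVIN2 (ENSG00000168497, chr2:192699036-192711814, minus strand, GRCh37, 2 exons) read 50.2 and 16.6 CPM (M1), 43.4 and 43.7 (M2), 46.6 and 25.9 (M3) and 0.696 and 0.269 (M4). The underlying counts were 4151 and 1364 (M1), 4422 and 3075 (M2), 3689 and 2257 (M3) and 79 and 21 (M4). Both M4 libraries lay far below all 6 others, whose lowest value was 23.9 times the higher M4 value, while M1, M2 and M3 overlapped with each other. The line means were 33.4 ± 23.7, 43.6 ± 0.202, 36.3 ± 14.6 and 0.483 ± 0.302 CPM from M1 to M4 (SD, n = 2). The mean in M4 was 1.28% of the mean of the other 6 libraries.

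CAVIN2 was lower in M4, with a log2 difference of -6.06 against M1 (SE 0.71, edgeR adjusted p = 0.00133), -6.45 against M2 (SE 0.72, edgeR adjusted p = 0.00187) and -6.18 against M3 (SE 0.71, edgeR adjusted p = 0.00377). These correspond to levels 66.9, 87.3 and 72.6 times lower. CAVIN2 was not called between M1, M2 and M3, where the log2 differences were 0.38 (M2 against M1), 0.12 (M3 against M1) and -0.27 (M3 against M2) with adjusted p of 0.722, 0.900 and 0.825 in edgeR. Its 2 M1 libraries differed by more than those means did. The M4 difference did not depend on the doubted libraries: exchanging them gave -6.56, -5.93 and -6.20 against M1, M2 and M3, with edgeR adjusted p of 0.00394, 0.00450 and 0.00949. The summed fibroblast list was also lowest in M4 (6.43 to 7.60 CPM, against 9.36 to 60.2 in M1, 72.7 to 74.7 in M2 and 10.1 to 16.1 in M3). DCN was its largest member in M1 replicate 1 and in M2, and COL1A1 in M1 replicate 2, M3 and M4. In M4, COL1A1 read 7.31 and 6.07 CPM and DCN 0.167 and 0.0128 CPM. Of the 7 genes in this list, 5 were under 1 CPM in every library, and the part of the list in the result was not tested. As M3 and M4 were both grown without EGF, the comparison of M4 with M3 was within 1 medium.

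CAVIN2-AS1 (ENSG00000233766, chr2:192711260-192909251, plus strand) starts inside the first exon of CAVIN2 and runs the other way. Its counts were 38 and 13 (M1), 29 and 41 (M2), 1 and 0 (M3) and 0 and 0 (M4). The antisense RNA was thus at or near 0 in both lines derived from carcinomas, whereas CAVIN2 was at or near 0 only in M4. A count of 0 allows up to 3 counts in a library, for counting error only. In edgeR its adjusted p was 0.0268 for M3 against M1 and 0.0466 for M3 against M2, contrasts in which CAVIN2 was not called. The 2 genes share 238 exonic bases, and the sources used here do not give whether the counting was stranded, so the origin of reads from that stretch is uncertain.

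The nearest expressed gene beside CAVIN2 did not share its loss. NABP1, which encodes a single-stranded DNA-binding protein, lies 93213 bases away and read 24.9 and 19.9 CPM (M1), 20.5 and 21.5 (M2), 13.5 and 16.1 (M3) and 22.7 and 24.9 (M4). Its M4 libraries were within the range of M1. TMEFF2, on the other side, read at most 0.0393 CPM in any library. The 3 protein-coding genes whose profile over the 8 libraries was closest to that of CAVIN2, by the root mean square difference of centred log2 CPM among 14088 genes, were ADAM23 (0.48), TBX18 (0.50) and PCBP3 (0.60). TBX18, a T-box transcription factor, read 8.50 to 12.9 CPM in M1, M2 and M3 and 0.176 and 0.0512 CPM in M4. ADAM23 and PCBP3 were low throughout, with highest values of 1.003 and 0.689 CPM.

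**Figure D2:**
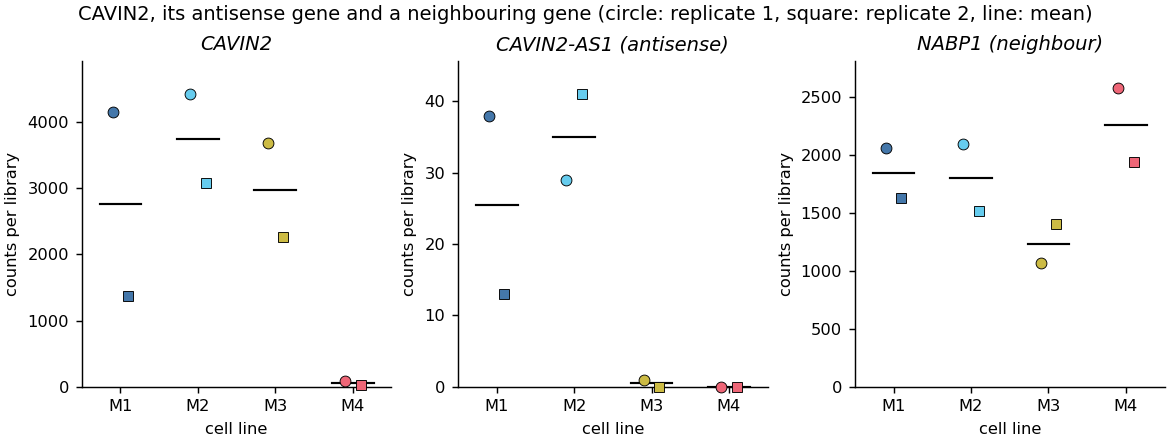
Counts per library (y axis, from 0, not scaled for depth) of CAVIN2, of its antisense gene CAVIN2-AS1 and of the neighbouring gene NABP1 in the 4 lines (x axis); circles are replicate 1, squares replicate 2 and lines the mean. CAVIN2 falls to 79 and 21 counts in M4 alone, CAVIN2-AS1 is at 0 or 1 in M3 and M4, and NABP1 stays between 1067 and 2575 counts.

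CAVIN3, which binds protein kinase C delta and belongs to the caveolar coat, showed the other marked pattern, with low levels in M1. CAVIN3 (ENSG00000170955, chr11:6340176-6341762, minus strand, GRCh37) read 16.1 and 11.5 CPM (M1), 58.6 and 55.7 (M2), 85.8 and 78.8 (M3) and 88.4 and 53.0 (M4). Both libraries labelled M1 lay below all others, and the lowest of the other 6 was 3.29 times the higher M1 value. The line means were 13.8 ± 3.27, 57.1 ± 2.07, 82.3 ± 4.995 and 70.7 ± 25.0 CPM from M1 to M4 (SD, n = 2). The mean in M1 was 19.7% of the mean of the other 6 libraries. No call was made among the 3 remaining lines, with log2 differences of 0.53, 0.31 and -0.22 for M3 against M2, M4 against M2 and M4 against M3 and edgeR adjusted p of 0.270, 0.415 and 0.581.

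Against M1, CAVIN3 was higher by 2.05 in M2 (log2, SE 0.26, edgeR adjusted p = 0.00847), by 2.58 in M3 (SE 0.27, edgeR adjusted p = 0.00124) and by 2.36 in M4 (SE 0.27, edgeR adjusted p = 0.000885), or 4.15, 5.97 and 5.13 times. These 3 comparisons share the M1 libraries and all rest on them. With the doubted libraries exchanged, the log2 differences were -0.15, 1.14 and 0.92 and the edgeR adjusted p were 1.00, 0.483 and 0.485, so that the calls were lost. With both doubted libraries left out, 1 library remained in M1 and in M2, and the M3 and M4 differences were 2.36 and 2.13 (edgeR adjusted p = 0.0110 and 0.00990), whereas that of M2 was 1.79 (adjusted p = 0.122). Under the exchanged assignment M1 would hold 1 library at 16.1 CPM and 1 at 58.6 CPM.

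The genes with the profile most like CAVIN3 over the 8 libraries were ANLN (root mean square difference 0.26), which encodes the cytokinesis protein anillin, FGFBP1 (0.27), which encodes a carrier of fibroblast growth factors, and CKAP2L (0.28), a spindle protein gene. ANLN read 70.4 and 40.8 CPM in M1 and 226 to 512 CPM in the other lines. The neighbours of CAVIN3 behaved otherwise. SMPD1, the acid sphingomyelinase gene, read 19.9 and 18.7 CPM in M1 and 10.1 to 16.3 in the rest, and CCKBR had 0 counts in every library.

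CAVIN1, the cavin that recruits the others, was the steadiest of the coat genes. CAVIN1 (ENSG00000177469, chr17:40554467-40575274, minus strand) read 266 and 336 CPM (M1), 381 and 390.0 (M2), 411 and 388 (M3) and 368 and 297 (M4). M1 and M4 overlapped, while the M2 and M3 libraries lay above both. The largest of its log2 differences, 0.41 for M3 against M1 (SE 0.17), had an edgeR adjusted p of 0.129, and none of the 6 comparisons was called. STX10, MARCHF9 and METTL6 had the most similar profiles, at root mean square differences of 0.063, 0.068 and 0.087.

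CAV1, the main structural protein of caveolae outside muscle, varied with a high M3 and a wide spread. CAV1 (ENSG00000105974, chr7:116165048-116201233, plus strand) read 561 and 350.3 CPM (M1), 732 and 732 (M2), 1268 and 695 (M3) and 555 and 571 (M4). The means were 456 ± 149, 732 ± 0.350, 982 ± 405 and 563 ± 11.4 CPM from M1 to M4 (SD, n = 2). The M3 libraries lay above M1 and M4 without overlap, but the lower of them was under both M2 libraries. The log2 difference of M3 from M1 was 1.11 (SE 0.31, edgeR adjusted p = 0.0414), and that of M4 from M3 was -0.80 (SE 0.31, edgeR adjusted p = 0.114). The first call was lost on leaving out M1 replicate 2, either M2 library, M3 replicate 1 or either M4 library in turn, with values of 0.62 to 1.11 and edgeR adjusted p of 0.0676 to 0.157. It was also lost in a fit of M1 and M3 alone (1.10, adjusted p = 0.127) and with the doubted libraries exchanged (0.60, adjusted p = 0.482) or left out (0.81, adjusted p = 0.243).

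CAV2, which reaches the surface in hetero-oligomers with CAV1, went the same way at a lower level. CAV2 (ENSG00000105971, chr7:115927434-116148595, plus strand) read 112 and 97.2 CPM (M1), 114.5 and 115 (M2), 242 and 147 (M3) and 108 and 108 (M4). Both M3 libraries lay above all 6 others, and M4 fell between the M1 libraries. The log2 difference was 0.89 for M3 against M1 (SE 0.22, edgeR adjusted p = 0.0279), 0.76 for M3 against M2 (SE 0.22, edgeR adjusted p = 0.0955) and -0.85 for M4 against M3 (SE 0.22, edgeR adjusted p = 0.0392). None of the 3 reached the 2-fold change that a call also required. With the doubted libraries exchanged, the first was 0.78 (edgeR adjusted p = 0.169) and the last -0.85 (adjusted p = 0.0945). In fits of only the 2 lines compared, the first was 0.89 (edgeR adjusted p = 0.0972) and the last -0.82 (adjusted p = 0.0860). Leaving out each library in turn gave 0.49 to 1.22 for the first and -1.17 to -0.45 for the last.

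Of all pairs among the 7 genes, CAV1 and CAV2 had the most similar profiles, with a root mean square difference of 0.24 on the log2 scale over the 8 libraries, which share their depth and scaling. EHD2 with PACSIN2 followed at 0.29, and CAVIN2 with CAVIN3 was the least similar pair at 3.21. Other genes came closer to CAV1 than CAV2 did, namely TMEM14A (0.14), GSDME (0.18) and ZCCHC17 (0.18). Closest to CAV2 were ANAPC11 (0.12), PSMA6 (0.13) and RPL36AL (0.13), all of them genes with their highest CPM in the 2 M3 libraries. CAV2 lies 16453 bases before CAV1. TES, the next gene before them, read 56.6 to 63.6 CPM (M1 and M2), 126 and 75.7 (M3) and 95.2 and 85.2 (M4). MET, the hepatocyte growth factor receptor gene after them, read 47.9 and 64.5 CPM (M1), 84.5 and 85.8 (M2), 210 and 126 (M3) and 229 and 249 (M4). MET was thus highest in M4, where CAV1 and CAV2 were not, and its log2 difference of 2.09 for M4 against M1 had an edgeR adjusted p of 0.00126.

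Neither gene of the caveolar neck was called in any of the 6 comparisons. EHD2 (ENSG00000024422, chr19:48216679-48246391, plus strand) read 270.3 and 217 CPM (M1), 243 and 236 (M2), 283 and 185 (M3) and 181 and 135 (M4). Both M4 libraries were below all others, the nearest being M3 replicate 2. The log2 differences of M4 were -0.62 from M1, -0.60 from M2 and -0.56 from M3 (SE 0.24 each), with edgeR adjusted p of 0.0819, 0.109 and 0.141 and unadjusted p of 0.0313, 0.0368 and 0.0462. PACSIN2 (ENSG00000100266, chr22:43231418-43411155, minus strand) read 99.8 and 76.9 CPM (M1), 75.8 and 71.9 (M2), 78.6 and 73.0 (M3) and 76.7 and 72.9 (M4). Apart from M1 replicate 1 its libraries lay within 71.9 to 78.6 CPM, and M4 differed from M1 by -0.24 (log2, SE 0.15, edgeR adjusted p = 0.268).

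Counted by comparison, 1 of the 7 genes was called in M2 against M1, where 3.37% of all genes tested were called. In M3 against M1 it was 2 of 7 (background 13.5%), and in M4 against M1 also 2 of 7 (background 20.7%), 1 higher and 1 lower against backgrounds of 9.48% and 11.2%. The single gene called in M4 against M2 (background 13.9%) and in M4 against M3 (background 10.3%) was CAVIN2. No member of the 7 was called in M3 against M2 by edgeR (background 4.15%), 1 had an unadjusted p under 0.05 (CAV2), and DESeq2 called 0. The median log2 difference of the 7 genes was 0.36, 0.41 and 0.05 in M2, M3 and M4 against M1, beside -0.04, -0.02 and -0.02 over all genes tested. The comparisons with M1 share its 2 libraries.

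**Figure D3:**
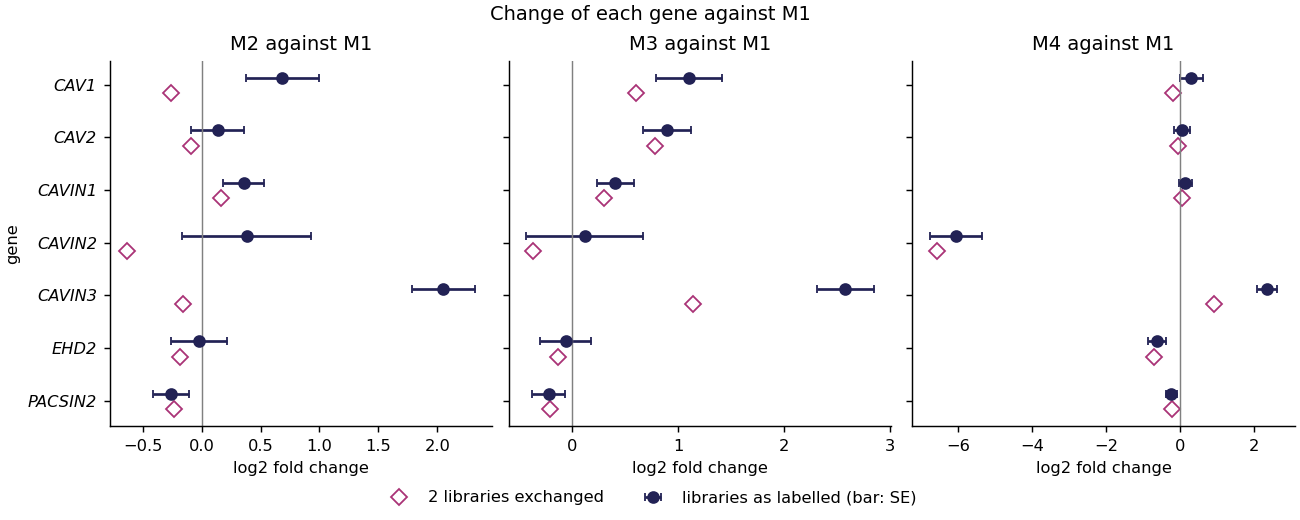
Log2 fold change against M1 (x axis, scaled separately in each panel) of the 7 genes (y axis) for M2, M3 and M4; filled circles with bars are the estimate and SE with the libraries as labelled, and open diamonds are the estimate with M1 replicate 2 and M2 replicate 1 exchanged. CAVIN2 in M4 keeps its place (-6.06 and -6.56), while CAVIN3 moves from 2.05 to -0.15 in M2, from 2.58 to 1.14 in M3 and from 2.36 to 0.92 in M4.

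Ratios taken within a library do not depend on how libraries are scaled. CAV1 had 5.01 and 3.60 counts per count of CAV2 (M1), 6.40 and 6.35 (M2), 5.23 and 4.74 (M3) and 5.14 and 5.28 (M4). The caveolin ratio thus stayed within 3.60 to 6.40 in all lines. CAVIN1 counts were 47.3% and 95.9% of CAV1 counts (M1), 52.0% and 53.3% (M2), 32.4% and 55.8% (M3) and 66.3% and 52.0% (M4), so the lines overlapped.

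The ratios of the other cavins to CAV1 separated lines. CAVIN2 counts were 8.94% and 4.75% of CAV1 counts (M1), 5.93% and 5.97% (M2), 3.67% and 3.73% (M3) and 0.126% and 0.0471% (M4). The M3 libraries, whose CAVIN2 level overlapped with M1 and M2, were thus the lowest of these 6 relative to CAV1. CAVIN3 counts were 2.87% and 3.27% of CAV1 counts (M1), 8.00% and 7.60% (M2), 6.77% and 11.3% (M3) and 15.9% and 9.28% (M4). The libraries labelled M1 were below all others in this ratio too. After the exchange this separation was lost, the mean log2 ratio being -4.38 in M1 and -4.33 in M2.

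**Figure D4:**
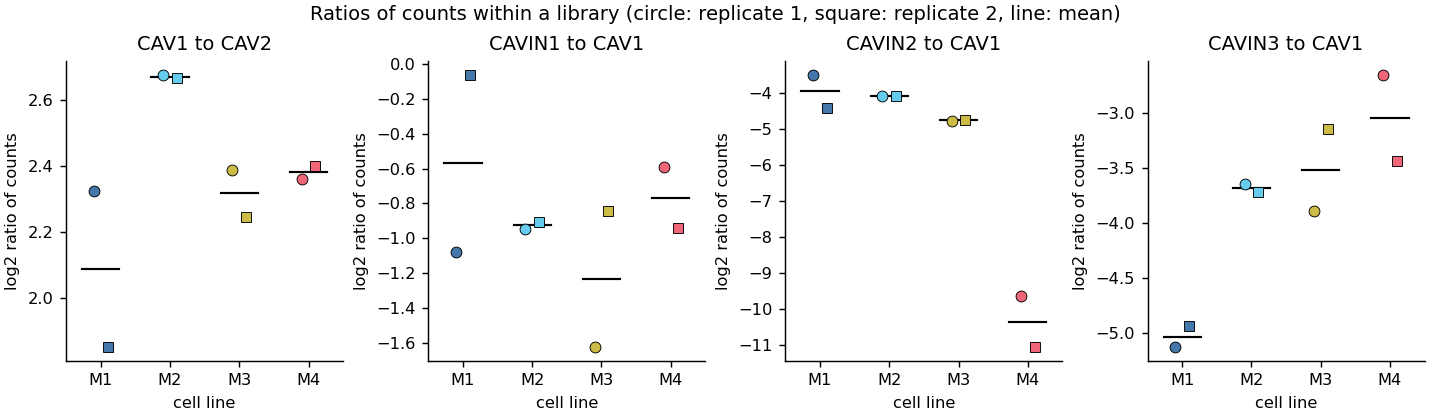
Log2 ratio of counts within each library (y axis, not starting at 0) for CAV1 to CAV2 and for CAVIN1, CAVIN2 and CAVIN3 to CAV1, by line (x axis); circles are replicate 1, squares replicate 2 and lines the mean. CAVIN2 to CAV1 stands at -9.64 and -11.05 in M4 and CAVIN3 to CAV1 at -5.13 and -4.93 in the libraries labelled M1, apart from the other lines; with the doubted libraries exchanged the latter means are -4.38 (M1) and -4.33 (M2).

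The 250 bases before the start of the canonical transcript are shown for CAVIN2, which separated M4 from the other lines, and for CAV1 and CAV2, which moved most alike. They were read from GRCh37 at chr2:192711815-192712064 (minus strand), chr7:116164840-116165089 (plus strand) and chr7:116139542-116139791 (plus strand). Each is written 5′ to 3′ along the gene's strand, and capitals mark CG dinucleotides, the sites at which DNA is methylated.
CAVIN2: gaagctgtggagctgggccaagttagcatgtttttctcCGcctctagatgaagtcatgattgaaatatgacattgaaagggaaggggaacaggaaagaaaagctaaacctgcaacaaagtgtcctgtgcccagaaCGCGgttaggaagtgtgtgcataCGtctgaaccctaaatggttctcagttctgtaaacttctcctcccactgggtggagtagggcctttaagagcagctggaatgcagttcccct
CAV1: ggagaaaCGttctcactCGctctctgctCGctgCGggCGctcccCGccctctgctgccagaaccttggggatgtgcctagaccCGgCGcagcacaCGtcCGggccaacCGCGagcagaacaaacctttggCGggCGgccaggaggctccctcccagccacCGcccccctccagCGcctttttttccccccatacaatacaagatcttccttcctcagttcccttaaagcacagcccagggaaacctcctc
CAV2: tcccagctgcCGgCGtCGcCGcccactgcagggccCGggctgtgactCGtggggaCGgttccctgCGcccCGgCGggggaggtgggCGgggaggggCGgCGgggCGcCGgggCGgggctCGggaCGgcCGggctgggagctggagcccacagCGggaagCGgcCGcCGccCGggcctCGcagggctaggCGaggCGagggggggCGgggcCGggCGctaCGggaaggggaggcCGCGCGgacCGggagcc

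The CAVIN2 window holds 4 CG dinucleotides and has a GC content of 48.0%, against medians of 18 and 63.2% over 19874 protein-coding promoters of the same length, and 18.9% of these promoters hold as few or fewer. The CAV1 window holds 16 and that of CAV2 holds 35, a number that 8.31% of promoters reach or pass. CAVIN1, EHD2 and PACSIN2 have 22, 20 and 24. Searched on both strands, GGGCGG (the GC box) was found 6 times before CAV2, 3 times before CAV1 and CAVIN1, 2 times before PACSIN2, and 1 time before EHD2. It was not found before CAVIN2, and 59.1% of all promoters hold it. CATTCC, the letters of TEAD factors, occurred 1 time before CAVIN2 and 1 time before CAVIN1 and in 9.83% of all promoters. Such matches describe the letters only.

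Several relatives of the 7 genes were called where EHD2 and PACSIN2 were not. Of 7 coat relatives (CAV3, CAVIN4, EHD1, EHD3, EHD4, PACSIN1 and PACSIN3), 6 were tested, CAV3 being at 0 counts. In M4 against M1, 3 were called higher and 2 lower, beside 9.48% and 11.2% of all genes tested, and PACSIN3 was not called. EHD1, which drives endocytic recycling, read 56.0 and 51.8 CPM (M1), 52.9 and 48.9 (M2), 83.9 and 70.3 (M3) and 187 and 144 (M4). Both M4 libraries were above all others, by 1.62 over M1, 1.70 over M2 and 1.10 over M3 on the log2 scale (SE 0.17 each), with edgeR adjusted p of 0.000679, 0.00107 and 0.00752.

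EHD4, a regulator of early endosomes, read 40.3 and 40.3 CPM (M1), 50.1 and 47.5 (M2), 110 and 101 (M3) and 91.3 and 91.4 (M4). It split the lines by medium as well as by origin, and M3 and M4 were higher than M1 by 1.38 and 1.18 (log2, SE 0.12 each, edgeR adjusted p = 0.000678 and 0.000625). EHD3, another recycling protein, fell to 5 and 6 counts in M4 from 124 and 254 in M1, 225 and 141 in M2, and 334 and 499 in M3. Its log2 difference in M4 was -5.26 from M1, -5.13 from M2 and -6.37 from M3, with edgeR adjusted p of 0.000647, 0.00122 and 0.00151. EHD3, like CAVIN2, was thus near 0 in M4 alone. With the doubted libraries exchanged, the M4 differences from M1 were 1.60 for EHD1, 1.01 for EHD4 and -4.94 for EHD3 (edgeR adjusted p = 0.00602, 0.0187 and 0.00472).

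Both relatives at the lower end of expression also differed in M4. CAVIN4, a cavin of muscle, had 20 and 19 counts (M1), 36 and 23 (M2), 47 and 27 (M3) and 132 and 82 (M4). PACSIN1, the neuronal paralogue of PACSIN2, had 34 and 28 counts (M1), 12 and 10 (M2), 15 and 12 (M3) and 1 and 2 (M4). CAVIN4 was called higher in M4 against M1 (log2 2.22, SE 0.49, edgeR adjusted p = 0.0122) and PACSIN1 lower (edgeR adjusted p = 0.00567). After the exchange neither was called, with CAVIN4 at 1.89 (edgeR adjusted p = 0.0767) and PACSIN1 at an adjusted p of 0.0629, and the M4 counts stayed the highest and the lowest of the 8.

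**Figure D5:**
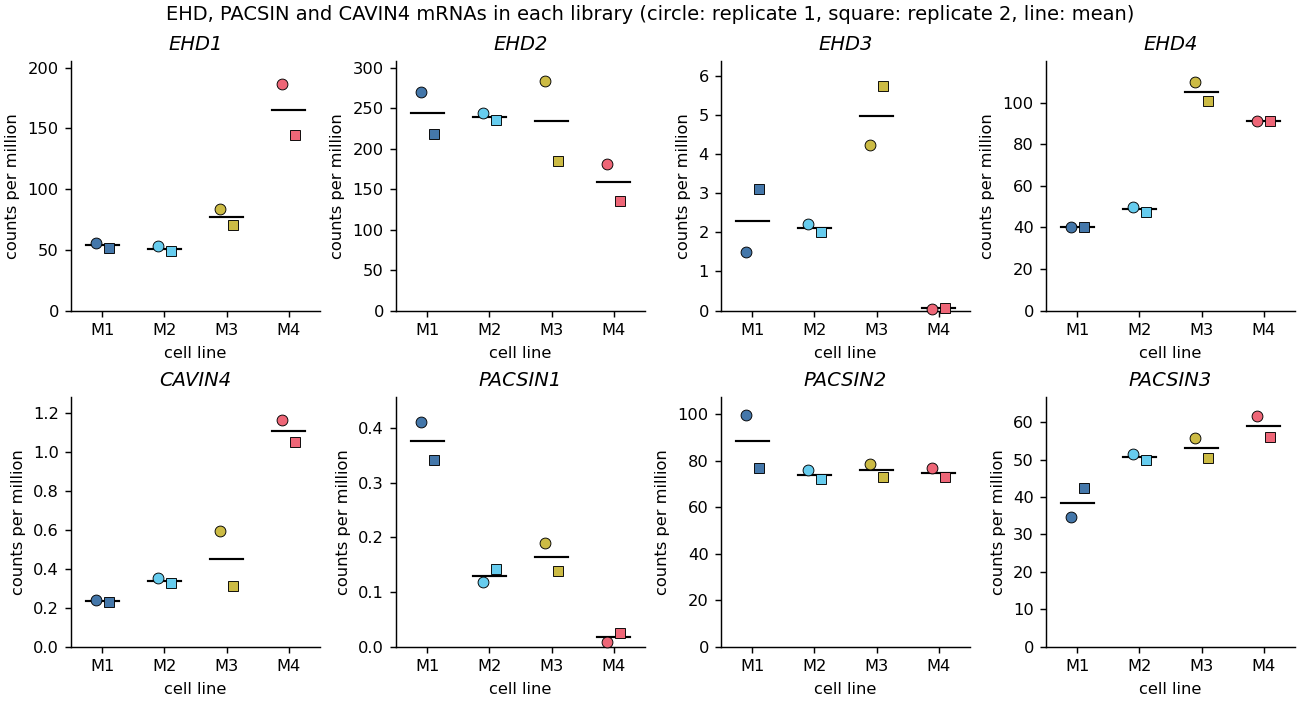
CPM (y axis, from 0, scaled per gene) of the EHD and PACSIN families and of CAVIN4 in the libraries of each line (x axis); circles are replicate 1, squares replicate 2 and lines the mean. EHD1 rises to 187 and 144 CPM in M4 and EHD4 to 91.3 to 110 CPM in M3 and M4, EHD3 is near 0 in M4, and EHD2 and PACSIN2 vary less.

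Other genes of the pathway were taken from lists written from general knowledge. Of 11 genes that link the neck to cortical actin, all were tested. In M4 against M1, 2 were called higher and 1 lower, beside 9.48% and 11.2% of all genes tested. ABL2, a non-receptor tyrosine kinase that acts on actin, read 24.5 and 21.6 CPM (M1), 22.0 and 22.7 (M2), 41.4 and 58.8 (M3) and 112 and 115 (M4). The lines did not overlap from M2 to M4, and the log2 difference of M4 from M1 was 2.31 (SE 0.19, edgeR adjusted p = 0.000279). DNM1, a dynamin, was lower, with a log2 difference of -1.33 (SE 0.41, edgeR adjusted p = 0.0395). FLNA, the filamin known to anchor caveolae, stood at 71.5 CPM in M1 replicate 1 and at 8.12 to 18.1 CPM in the 7 other libraries, and DNM2 at 110 to 149 CPM. In M3 against M1, 2 of the 11 were called, ABL2 and the dynamin gene DNM3 (1.75), both higher. Of all genes tested, 13.5% were called in that comparison. With the doubted libraries exchanged, ABL2 was called in M4 against M1, whereas DNM1 in M4 (-1.28, edgeR adjusted p = 0.124) and ABL2 and DNM3 in M3 (1.11 and 1.80, adjusted p = 0.0561 and 0.0937) were not called at log2 differences close to those with the libraries as labelled.

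Among 7 enzymes that make lipids of caveolae, 1 was called higher in M4 against M1, beside 9.48% of all genes tested. SGMS2, a sphingomyelin synthase, read 11.9 to 19.7 CPM in the 6 libraries of M1, M2 and M3, and 49.99 and 51.2 CPM in M4. The M4 libraries stood above the 6 others, with a log2 difference of 1.71 from M1 (SE 0.22, edgeR adjusted p = 0.00162). Of 8 genes for caveolar cargo and diaphragm, 7 were tested. In M4 against M1, 1 was called higher and 2 lower, beside 9.48% and 11.2% of all genes tested. NOS3, the nitric oxide synthase that CAV1 binds and restrains, had 4 and 5 counts (M1), 4 and 0 (M2), 0 and 3 (M3) and 1244 and 686 (M4). It was near 0 outside M4, and its edgeR adjusted p for M4 against M3 was 0.00227. The NOS3 and SGMS2 calls held with the doubted libraries exchanged.

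CD36, a fatty acid receptor found in caveolae, had 11672 and 5943 counts (M1), 4354 and 2891 (M2), 83 and 24 (M3) and 11 and 49 (M4). The lines grown with EGF did not overlap with those grown without it, and the log2 difference of M4 from M1 was -8.30 (SE 0.93, edgeR adjusted p = 0.00115), or -8.05 after the exchange (adjusted p = 0.00929). KDR, a receptor for VEGF, had 193 and 249 counts (M1), 19 and 7 (M2), 139 and 103 (M3) and 6 and 1 (M4). It was low in M2 and M4. Its call in M2 against M1 (edgeR adjusted p = 0.0108) was the single call among 51 pathway genes tested, beside 3.37% of all genes. That KDR call was lost with the doubted libraries exchanged. KDR was also called lower in M4 against M1 (log2 -6.20, edgeR adjusted p = 0.000763). After the exchange this call was lost too (-5.12, edgeR adjusted p = 0.120).

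Flotillins scaffold membrane rafts without caveolae. Of 5 other raft scaffolds, 4 were tested, and MAL2 was the 1 called in M4 against M1, where 20.7% of all genes were called (log2 1.39, SE 0.14, edgeR adjusted p = 0.000613). FLOT2 read 83.4 and 91.9 CPM in M4 against 122 to 209 CPM in the other 6 libraries, with a log2 difference of -1.24 from M3 (SE 0.18, edgeR adjusted p = 0.00654). Of 16 clathrin coat genes, 1 was called higher in M4 against M1, beside 9.48% of all genes tested. The one called was ITSN2, an endocytic scaffold (log2 1.03, SE 0.26, edgeR adjusted p = 0.0194). Under the exchange the FLOT2 call held, while MAL2 and ITSN2 in M4 against M1 stood at 0.96 and 0.86 (edgeR adjusted p = 0.104 and 0.0670) and were not called. The median log2 difference of the clathrin list in M4 against M1 was 0.21, beside -0.02 over all genes tested. Over the 6 pathway lists together, 14 of 51 genes tested (27.5%) were called in M4 against M1, beside 20.7% of all genes. After the exchange 8 were called, and the calls over the whole table went from 3821 to 1559.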

How the data were processed

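Poly A+ RNA-seq of 8 libraries was analysed, 2 per line, grouped by the sample labels. The authors trimmed paired-end reads with Trimmomatic, aligned them with STAR to hg19 (GRCh37) and deposited expected counts per gene from RSEM on GENCODE v19, not normalized. Versions and use of strand are not given in the sources used here. Of the deposited values 12.8% were not whole, and all were rounded. Symbols and coordinates came from GENCODE release 44 on GRCh37, which matched 94.7% of genes with a count.

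Tests used edgeR 4.0.16 in R 4.3.3 (filterByExpr, TMM factors, a mean per line fitted jointly to the 8 libraries, robust quasi-likelihood F test) with Benjamini-Hochberg adjustment over 18431 genes. Calls needed both adjusted p below 0.05 and more than a 2-fold difference. Standard errors were derived from the F statistic. CPM are TMM-scaled. Python 3.11.15 with pandas 2.3.3, numpy 2.4.6 and matplotlib 3.10.9 did the rest. The fit was tested on simulated data. The libraries are described as biological replicates, with no record of separate cultures, so the p-values measure the spread between these libraries.

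Genes named are the 7 members, at most 4 called genes per pathway list and comparison, list genes that mark cell types, the 3 closest profiles per caveolin or cavin, neighbours, antisense genes and HRAS; FLNA, DNM2, PACSIN3 and CAV3 were named after their values were seen. The members and lists were chosen with earlier results of these data known. PECAM1 was not matched in the table and is not analysed here. Some list genes and 1 promoter window are not reported here. Alternatives were DESeq2 1.42.0, RLE size factors, library totals, other filters, no fold threshold, only the 2 lines compared, a replicate block, each library left out, and the 2 doubted libraries exchanged or left out.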

Additional observations from a re-analysis of the deposited data

How the results depend on the processing

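The loss of CAVIN2 in M4 kept its direction and its call against M1, M2 and M3 in all 17 alternatives run for each, with log2 values between -7.33 and -5.04 and the highest adjusted p at 0.0267. The 7 genes as a group were less steady. With M1 replicate 2 and M2 replicate 1 exchanged, the calls in M2, M3 and M4 against M1 numbered 0, 0 and 1 in place of 1, 2 and 2, and the CAVIN3 difference of M2 from M1 turned to -0.15. With both left out, the first 2 counts were 0 and 1. With only the 2 lines compared, M3 against M1 had 1 call, and with no fold threshold M3 against M1 had 3 in place of 2 and M4 against M3 had 2 in place of 1. Leaving out each library in turn gave 0 to 1 calls in M2 against M1, 1 to 3 in M3 against M1, 0 to 1 in M3 against M2 (CAV2, without M3 replicate 2) and 1 to 3 in M4 against M3 (CAV1 and CAV2 in addition, without M3 replicate 2, at -1.18 and -1.17). CAVIN3 in M2 against M1 was not called without M2 replicate 1 (2.02, edgeR adjusted p = 0.0800) or M2 replicate 2 (2.09, adjusted p = 0.0753), and CAV2 in M3 against M1 was called without M3 replicate 2 (1.22). The pathway lists had 0, 2, 8, 3 and 6 calls after the exchange in M2, M3 and M4 against M1, M3 against M2 and M4 against M3, in place of 1, 5, 14, 6 and 10. The cause was not tested.

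The mean log2 ratio of CAV1 to CAV2 moved with the exchange to 2.50 in M1 and 2.26 in M2, and that of CAVIN3 to CAV1 to -4.38 and -4.33. With 1 library left in a line, CAV1 to CAV2 in M1 ranged from 1.85 to 2.32, CAVIN1 to CAV1 in M1 from -1.08 to -0.060, CAVIN2 to CAV1 in M4 from -11.05 to -9.64 and CAVIN3 to CAV1 in M4 from -3.43 to -2.65. Of 27 further member comparisons with no call, 20 changed sign in at least 1 alternative, in 38 of 459 values, the one farthest from 0 being -0.63 (CAVIN2, M2 against M1, after the exchange), and 1 value was called. Genes called over the whole table ranged from 0 to 1788 in M2 against M1 (622 as reported), 219 to 3918 in M3 against M1 (2494), 1559 to 5779 in M4 against M1 (3821), 83 to 1880 in M3 against M2 (765), 927 to 4096 in M4 against M2 (2567) and 598 to 3091 in M4 against M3 (1897).

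Replicate numbers did not pair the libraries: the correlation of replicate differences between lines ran from -0.02 to 0.12. The fit with the replicate number as a block gave the same number of member calls in each comparison (1, 2, 2, 0, 1 and 1). At 79 and 21 counts, CAVIN2 in M4 is subject to counting error. Its M4 libraries, at 0.696 and 0.269 CPM, also differed by more than counting error alone. The fewer counts of CAVIN2-AS1, PACSIN1 and EHD3 in M4 are limited by counting error.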
